A study of Homo sapiens with 12 samples.

Results

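The 10 genes described here encode the transcription factors of the AP-1 and EGR families that belong to the immediate early genes: FOS, FOSB, FOSL1, FOSL2, JUN, JUNB, JUND, EGR1, EGR2 and EGR3. They were taken by symbol from a count table of 57169 genes, and all 10 were found and passed the filter on low counts that 16519 genes passed. The table holds 12 libraries from xenografts of SK-ES1, tumours that this human Ewing sarcoma line formed in a host animal. The control group has 6 libraries labelled wild-type, and the other 6 are labelled as knock-down of RING1B, the ubiquitin ligase of Polycomb repressive complex 1 that RNF2 encodes. The silencing agent, any control construct, the host species and its age, the tumour site and the time of growth are not stated in the labels, nor is whether the cells were a single clone. Replicate numbers follow the order of deposit and only name libraries.

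Immediate early genes are transcribed within minutes of a signal, without the need for new protein. Growth factor signals reach them through the ERK kinase cascade and serum response factor (SRF), and stress and cyclic AMP signals through other kinases and CREB. AP-1 is a dimer of a FOS family and a JUN family protein and binds the TPA response element, and the JUN proteins can also pair among themselves or with ATF proteins. EGR proteins are zinc finger factors that bind a GC-rich element, and the NAB proteins are their corepressors. Many of these genes also shut themselves off, since their products, or the phosphatases and Sprouty proteins induced with them, act back on the pathway.

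Sites known to receive such signals lie near the starts of many of these genes. The windows of 250 bases upstream of the RefSeq starts (GRCh38.p14) were searched on both strands for 8 of the 10 genes, which have 10 such windows. TGACGT, the core of the cyclic AMP response element, was present in 6 of the 8 genes, and in 7.1% of 35116 windows of the same length over all genes. In the lines below capitals mark the matched letters, the runs are shown because FOS, FOSB, FOSL2 and JUN carry a match at nearly the same distance from the start, and positions count back from the base before the start as −1.
FOS, chr14:75278752-75278781, plus strand: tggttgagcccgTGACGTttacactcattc
FOSB, chr19:45467924-45467953, plus strand: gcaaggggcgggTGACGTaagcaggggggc
FOSL2, chr2:28392780-28392809, plus strand: ggagtctggggtTGACGTgagtgaatccac
JUN, chr1:58784096-58784125, minus strand: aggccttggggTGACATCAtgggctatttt

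The core began at position −64 in FOS, −60 in FOSB and −66 in FOSL2. JUN had no such core, but at −67 the letters TGACATCA, a match to TGACNTCA, the longer element that JUN and ATF proteins are known to bind. TGACNTCA was found in 6.87% of all windows and in 2 of the 8 genes, JUN and JUND. In JUND the match at −200 is palindromic and so contains the core on both strands, and a further core began at −87.
JUND, chr19:18281804-18281833, minus strand: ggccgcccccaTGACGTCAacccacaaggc
JUND, chr19:18281692-18281721, minus strand: tgcaaatgagcgACGTCAcccgcacccaat

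The CArG box, the site that SRF binds, was the rarest of the 5 motifs searched, with 1.16% of all windows. It was found in EGR1 and EGR2 and in none of the AP-1 windows searched. Bases beyond the 250 were not searched, so the windows cannot show that an AP-1 gene lacks a CArG box. EGR1 is shown whole because it holds a pair of CArG boxes, at −105 and −83, the core read on the other strand as ACGTCA at −136 and another at −67, and a match to the EGR element GCGNGGGCG at −198.
EGR1, chr5:138465229-138465478, plus strand: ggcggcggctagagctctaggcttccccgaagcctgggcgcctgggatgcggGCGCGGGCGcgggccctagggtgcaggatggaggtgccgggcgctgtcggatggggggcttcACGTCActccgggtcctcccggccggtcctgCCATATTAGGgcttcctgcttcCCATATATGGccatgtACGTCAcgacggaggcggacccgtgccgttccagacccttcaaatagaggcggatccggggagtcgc
EGR2, chr10:62816412-62816441, minus strand: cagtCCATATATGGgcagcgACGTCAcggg

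In EGR2 the CArG box, at −71, had the same letters as the box nearer the start in EGR1. GCGNGGGCG occurred in 8.41% of all windows and in 1 of the 8 genes. The TPA response element TGANTCA occurred in 6.57% of all windows and in 0 of the 8 genes, and JUNB held none of the 5 motifs in its window. These are matches of letters, with no data on binding. Gene starts differ between annotations. In GENCODE 29 the printed JUN, FOSL2 and EGR2 runs lie within the annotated gene, and the FOS run crosses its start. Outside these windows, JUNB lies at chr19:12791496-12793315 on the plus strand and FOSL1 at chr11:65892049-65900573 on the minus strand (GENCODE 29, hg38), and all 10 are protein-coding genes.

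Total counts ran from 23859184 to 26678325 per library, so that 3 counts were worth 0.112 to 0.126 CPM, that is, counts scaled to a common library total. RNF2 was lower in each knock-down library, at 12.4 to 23.4 CPM, than in any control, at 37.5 to 57.9 CPM (log2 fold change −1.43, SE 0.174, edgeR adjusted p = 0.00347). Of 10 Ewing sarcoma markers 9 passed the filter, CD99, a name that stands for more than 1 annotated gene, was listed at 0 in all 12 libraries, and NKX2-2, a fusion target, averaged 27.9 ± 4.19 CPM over the controls and 36.2 ± 8.29 over the knock-downs (SD, n = 6). Reads of host cells that align to human genes may be counted too, and in these bulk samples fewer cells of a type and less RNA per cell cannot be told apart. Control 6, knock-down 4 and knock-down 5 were least like the rest, with median correlations with the other libraries of 0.966, 0.955 and 0.967 against 0.975 to 0.986.

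Compared per kilobase of exon in control tumours, JUND, the JUN protein gene that is expressed most constantly in most cells, was the highest, at 52.4 ± 6.50 CPM per kilobase (SD, n = 6). EGR2 followed at 48.3 ± 12.5, JUNB at 46.7 ± 5.35 and EGR1 at 41.4 ± 16.3 CPM per kilobase. JUN stood at 27.4 ± 12.9 and FOS at 15.3 ± 11.5 CPM per kilobase. FOSL2 at 3.53 ± 0.374 and FOSB at 3.04 ± 2.04 came next, and EGR3 at 0.960 ± 0.471 and FOSL1 at 0.610 ± 0.181 CPM per kilobase were the lowest. The drop from FOS to FOSL2 was the only step at which the control ranges did not overlap. JUN also exceeded FOS, and FOSB exceeded EGR3, in 12 of 12 libraries, and JUNB exceeded EGR1 in 10 of 12. JUND, EGR1 and FOSL2 exceeded the gene that follows each in 8 of 12. EGR3 exceeded FOSL1 in 7 of 12 and EGR2 exceeded JUNB in 5 of 12. These counts take in both groups. EGR1 exceeded JUN in every control, while in knock-down the means were 32.7 CPM per kilobase for EGR1 and 40.4 for JUN. The neighbours JUND and EGR2, EGR2 and JUNB, JUNB and EGR1, FOSL2 and FOSB, and EGR3 and FOSL1 changed order among the controls. These pairs did not differ beyond their spread.

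**Figure D1:**
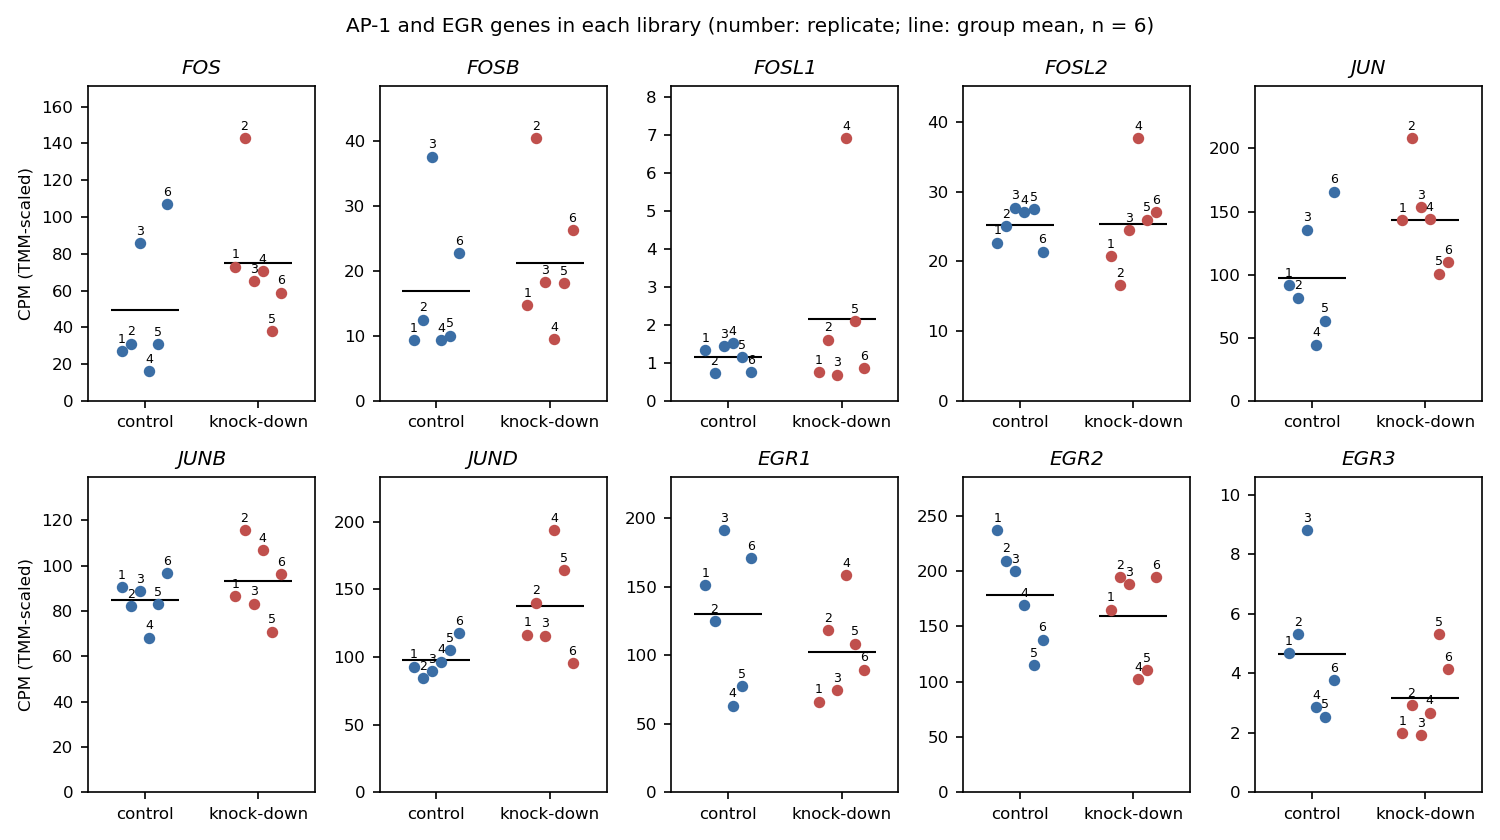
CPM (vertical axis, from 0) of each of the 10 genes in the 6 control and 6 knock-down libraries. Each point is a library, numbered by replicate, and the line is the group mean. The groups overlap in all 10 panels, and single libraries stand out, such as knock-down 2 for FOS and knock-down 4 for FOSL1.

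No member differed between knock-down and control past the threshold. By edgeR's quasi-likelihood test 0 of 10 were called at an adjusted p below 0.05, where 0.297% of all tested genes were called, and DESeq2 and limma-voom also called 0. At an unadjusted p below 0.05 there was 1 member, JUND, beside 12.7% of all tested genes. In 0 of 10 did the 6 control and 6 knock-down libraries separate, beside 1.22% of all tested genes. All 7 AP-1 genes had a positive and all 3 EGR genes a negative log2 fold change, with a median over the 10 of 0.23 against 0.01 over all tested genes, of which 52.4% were positive. That median was 0.07 without knock-down 4, 0.09 without knock-down 2 and 0.02 in limma-voom with sample quality weights. The signs are a description, and that of FOSL2 turned in 12 of 25 alternatives.

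FOS, the founding partner of JUN in AP-1, varied over a wide range in both groups. Controls 1 to 6 held 27.0, 31.2, 85.6, 16.1, 30.8 and 107 CPM. Knock-downs 1 to 6 held 73.0, 143, 65.3, 70.4, 38.1 and 58.9 CPM. Of the controls, 4 lay below every knock-down library, while controls 3 and 6 lay above 5 of the 6 knock-downs. The log2 fold change was 0.59 (SE 0.420, 95% interval −0.30 to 1.49, edgeR adjusted p = 0.584), and an exact two-sided permutation test over the 924 divisions of the libraries gave p = 0.136. The interval therefore held any value from a 0.811-fold to a 2.80-fold level in knock-down. Leaving out single libraries moved the log2 fold change from 0.30 without knock-down 2 to 0.97 without control 6.

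JUN, the most strongly transactivating of the JUN proteins, showed the same layout at higher counts. It ranged from 44.6 through a median of 86.6 to 166 CPM in control, and from 101 through 144 to 208 CPM in knock-down. Again 4 controls lay below every knock-down library and controls 3 and 6 did not. The log2 fold change was 0.56 (SE 0.270, 95% interval −0.02 to 1.14, edgeR adjusted p = 0.410), with an exact permutation p of 0.0671.

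JUND gave the smallest p of the 10. Its controls lay close together, between 84.2 and 118 CPM with a median of 94.7. Its knock-downs spread from 95.3 to 194 CPM with a median of 128. Here 3 knock-down libraries exceeded every control, and knock-downs 1, 3 and 6, at 117, 116 and 95.3 CPM, lay within the control range. The log2 fold change was 0.50 (SE 0.155, 95% interval 0.16 to 0.83), and neither its edgeR adjusted p of 0.208 nor the range of adjusted p over the alternatives, 0.0879 to 0.454, passed the threshold, with an exact permutation p of 0.0216 before any adjustment for the other members. Without knock-down 4, the highest library, the value was 0.37 (edgeR adjusted p = 0.320).

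JUNB, a JUN protein that often acts against JUN in cell proliferation, was the steadiest member. It lay between 68.3 and 96.8 CPM in control and between 70.9 and 116 CPM in knock-down, with medians of 86.0 and 91.5. The log2 fold change was 0.14 (SE 0.124, 95% interval −0.13 to 0.40, edgeR adjusted p = 0.682), so a change beyond 1.32-fold upward lay outside the interval. Without knock-down 2 the value was 0.06. An exon of JUNB overlaps HOOK2 on the opposite strand, which averaged 16.6 ± 3.34 CPM over the controls and 17.4 ± 5.55 over the knock-downs (SD, n = 6), and whether strand was used in counting is not stated.

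FOSB, a close relative of FOS, followed FOS in its high libraries but not in all. Controls 3 and 6 held 37.5 and 22.7 CPM and the other controls 9.30 to 12.5 CPM. Knock-down 2 was the highest at 40.3 CPM, and knock-down 4, with 70.4 CPM of FOS, held only 9.54 CPM of FOSB. The log2 fold change was 0.32 (SE 0.386, 95% interval −0.50 to 1.15, edgeR adjusted p = 0.767). Leaving out single libraries moved it from 0.04 without knock-down 2 to 0.71 without control 3.

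FOSL1 and FOSL2 encode FRA1 and FRA2, FOS relatives without the strong transactivation domain, which accumulate later than FOS after a stimulus. FOSL2 lay between 21.4 and 27.7 CPM in control and between 16.6 and 37.6 CPM in knock-down. Its log2 fold change was 0.01 (SE 0.162, 95% interval −0.33 to 0.36, edgeR adjusted p = 0.988). FOSL1 was near the lower end of what was measured, with 18 to 162 counts per library. It lay between 0.721 and 1.51 CPM in control and between 0.692 and 2.09 CPM in 5 of the knock-downs, and reached 6.90 CPM in knock-down 4. Its log2 fold change of 0.89 (SE 0.516, 95% interval −0.21 to 1.99, edgeR adjusted p = 0.493) was the highest of the members and became 0.06 without knock-down 4, and both groups had a median of 1.24 CPM.

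The EGR genes leaned the other way, and none passed the threshold. EGR1, a widely used readout of ERK signalling, ranged from 63.1 through a median of 138 to 191 CPM in control and from 66.1 through 99.0 to 158 CPM in knock-down. Only controls 3 and 6 lay above every knock-down library, and control 4 lay below them all. The log2 fold change was −0.34 (SE 0.268, 95% interval −0.91 to 0.23, edgeR adjusted p = 0.626). EGR2, known for its part in myelination and as a susceptibility gene of Ewing sarcoma, ranged from 115 through 184 to 237 CPM in control and from 102 through 177 to 195 CPM in knock-down. Its log2 fold change was −0.16 (SE 0.201, 95% interval −0.59 to 0.27, edgeR adjusted p = 0.778). EGR3, an ERK and calcium responsive relative, ranged from 2.55 through 4.22 to 8.81 CPM in control and from 1.93 through 2.80 to 5.30 CPM in knock-down, with a log2 fold change of −0.56 (SE 0.326, 95% interval −1.26 to 0.13, edgeR adjusted p = 0.494). Without control 3 the values of EGR1 and EGR3 were −0.21 and −0.29, and without knock-down 4 those of EGR1 and EGR2 were −0.51 and −0.06.

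**Figure D2:**
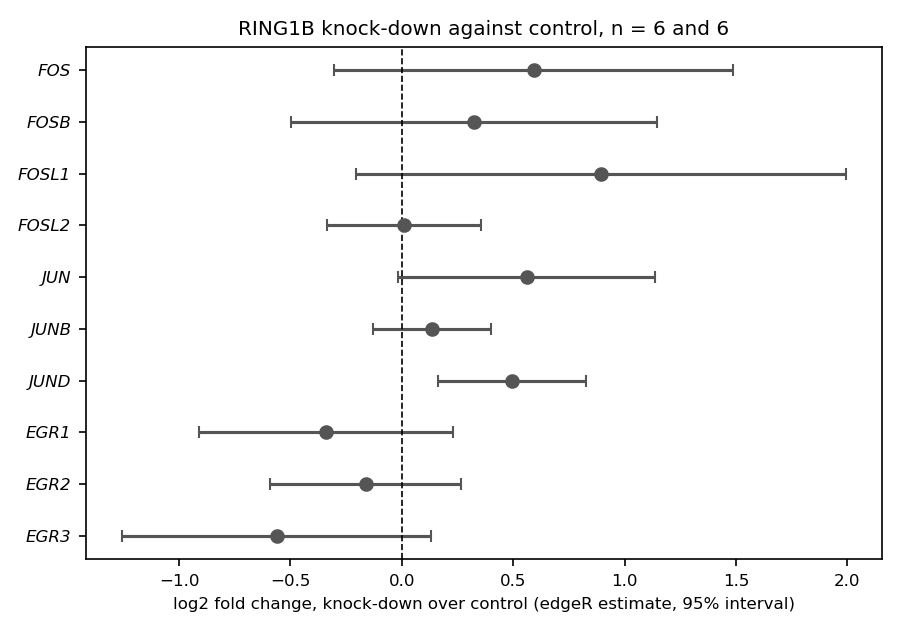
Log2 fold change of knock-down over control (horizontal axis) for each of the 10 genes, as estimated by edgeR from 6 and 6 libraries, with bars for the 95% interval. The 7 AP-1 genes lie right of 0 and the 3 EGR genes left of it. The interval of JUND alone leaves out 0, at an adjusted p of 0.208.

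Several members varied widely between tumours of the same group. The pooled standard deviation within groups, on the log2 CPM scale, was 0.86 for FOS, above that of 94.4% of tested genes, whose median was 0.30. FOSL1 had 0.91 and FOSB 0.77, and EGR3, EGR1 and JUN had 0.60, 0.56 and 0.56. EGR2 stood at 0.41. FOSL2, JUND and JUNB, at 0.30, 0.29 and 0.22, varied no more than the median of all tested genes, whatever their abundance. From the lowest to the highest library FOS spanned 6.65-fold among controls and 3.75-fold among knock-downs, while JUNB spanned 1.42-fold and 1.63-fold. Relative to the variation edgeR fits for genes of the same abundance, FOS varied 2.74 times as much, a ratio above that of 99.8% of tested genes, and for FOSB, JUN and EGR1 the ratio was 2.08, 1.83 and 1.81. For FOSL1 it was 1.41 and for EGR3 1.10, both genes of low counts. EGR2 had a ratio of 1.38, above that of 91.9% of tested genes. JUND had 1.09, FOSL2 0.996 and JUNB 0.892, above those of 78.4%, 69.4% and 54.9% of tested genes.

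**Figure D3:**
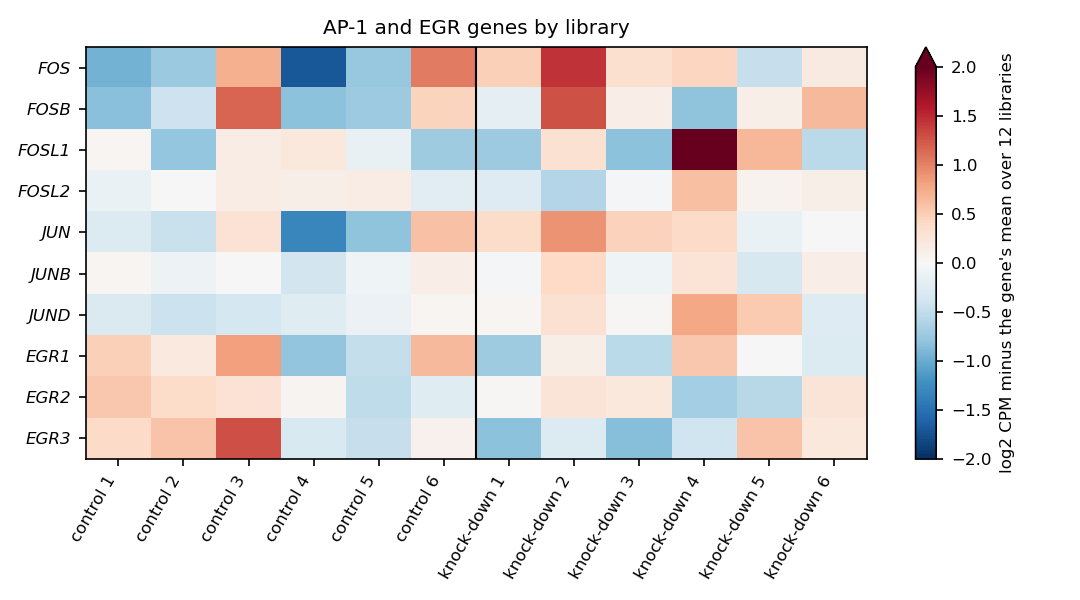
Log2 CPM of each gene (rows) in each library (columns) minus the mean of that gene over the 12 libraries, with red for higher and blue for lower. The line divides the groups, and the colour scale ends at 2, which FOSL1 in knock-down 4 exceeds. FOS, FOSB and JUN are red together in control 3, control 6 and knock-down 2 and blue together in control 4.

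FOS and JUN were high and low in the same libraries. Over the 12 libraries their log2 CPM had a Pearson r of 0.951 and a Spearman rho of 0.909 (permutation test, adjusted p over 45 pairs of members 0.00045, the smallest the resamples can give, and 0.0103). The relation was present within each group of 6, with r of 0.943 in control and 0.939 in knock-down. Without control 4 and knock-down 2, the libraries farthest from the median of FOS, r was 0.900, and over the means of the 8 title numbers it was 0.966. This was the 1 pair of the 45 that passed with both measures. FOS and FOSB had r of 0.759 and rho of 0.776 (permutation test, adjusted p 0.066 and 0.0663), and without those 2 libraries r was 0.625. JUN and JUNB had r of 0.740, or 0.628 without controls 4 and 5, and FOS and JUNB 0.765, or 0.495 without control 4 and knock-down 2, and neither pair passed. JUND, in contrast, had a negative r of −0.729 with EGR2 (adjusted p 0.0716, permutation test). Without knock-downs 4 and 5, the libraries farthest from the median of JUND, it was −0.337. Within the groups r of JUND with EGR2 was −0.785 in control, which holds neither of those libraries, and −0.857 in knock-down. Taken as deviations from the group means it was −0.795.

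EGR1 was related to FOS less closely. In control the r of FOS with EGR1 was 0.798, and in knock-down it was 0.134, and the difference between these was not tested. Knock-down 1 illustrates it, with 73.0 CPM of FOS, the second highest of its group, and 66.1 CPM of EGR1, the lowest. Over all 12 libraries r was 0.389.

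**Figure D4:**
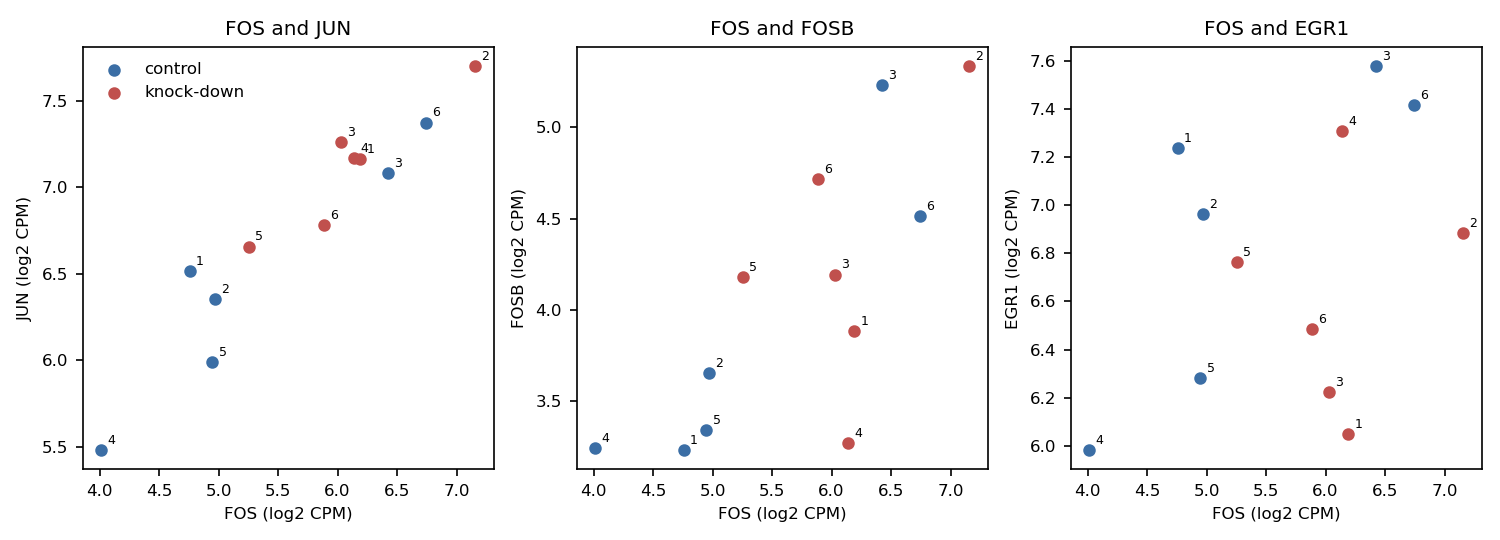
Log2 CPM of JUN, FOSB and EGR1 (vertical axes) against FOS (horizontal axis), where each point is a library, numbered by replicate, blue for control and red for knock-down. JUN follows FOS over the whole range with r of 0.951, FOSB less closely with 0.759, and EGR1 with 0.389.

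Titles of the libraries carry a number and a letter whose meaning the labels do not give. There are 8 numbers, 4 of them on a pair of libraries each, and none in both groups. FOS differed by 0.47 on the log2 scale on average between the 4 pairs that share a number and by 1.05 between the 26 other pairs of the same group. The corresponding values were 0.22 and 0.72 for JUN, 0.50 and 0.96 for FOSB, and 0.29 and 0.80 for EGR3. FOSL2 and EGR1 were closer within a shared number as well, which makes 6 of 10 members, beside 53.2% of all tested genes. JUNB, JUND, EGR2 and FOSL1 were farther apart within a shared number, with 0.30 and 0.25, 0.45 and 0.32, 0.61 and 0.47, and 1.39 and 0.89. Knock-downs 3 and 4, which share a number, held 0.692 and 6.90 CPM of FOSL1. If the numbers mark an animal or a day, the libraries are not all independent, which would make the p-values too small. The labels do not say.

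The libraries with the highest FOS also differed in other ways. Control 6, the highest control for FOS, JUN, JUNB and JUND, had 14.4% of its counts in mitochondrially encoded genes, against 4.65% to 10.01% in the other libraries. Knock-down 2, highest of all for FOS, FOSB, JUN and JUNB, had the highest sum of the 4 red blood cell markers, 23.0 CPM, where controls had 2.63 to 13.9 CPM and the other knock-downs 6.18 to 14.6 CPM. Of that sum HBB held 21.5 CPM and ALAS2 1.48 CPM, while HBA1 and HBA2 reached at most 0.199 and 0.341 CPM in any library. None of these markers was at 0 in all libraries, and 2 of the 4 passed the filter. The part of either in the FOS values was not tested.

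Genes of the same circuit gave the surroundings of these values. Among the dimer partners of AP-1, the log2 fold change was positive for 7 of 11 tested genes and the median was 0.18. ATF3, a stress-induced partner of JUN, averaged 12.1 ± 3.19 and 21.1 ± 10.9 CPM (SD, n = 6), with a log2 fold change of 0.80 (edgeR adjusted p = 0.271). BATF2 reached at most 1.42 CPM in any library (log2 fold change 0.87, edgeR adjusted p = 0.519).

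The corepressors and relatives of the EGR proteins did not pass the threshold, with 0 of 3 tested genes called and 0 at an unadjusted p below 0.05. EGR4 had a log2 fold change of −0.36, NAB1 of −0.08 and NAB2 of 0.14 (edgeR adjusted p = 0.645, 0.848 and 0.691). NAB2, itself a target of EGR1, averaged 156 ± 29.4 CPM over the controls and 173 ± 22.0 over the knock-downs (SD, n = 6). Of 18 upstream kinases and SRF partners, all tested, 10 had a positive log2 fold change, 0 were called, and 2 had an unadjusted p below 0.05. These were MAP2K2, which encodes the ERK kinase MEK2, at 0.26, and MAPK14, which encodes the stress kinase p38 alpha, at −0.22, and ELK3, a cofactor of SRF, followed at −0.28 (edgeR adjusted p = 0.372, 0.388 and 0.434).

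The 27 other immediate early genes tested had a median log2 fold change of 0.12, and 16 were positive. None were called by edgeR, DESeq2 or limma-voom, and 4 had an unadjusted p below 0.05. GEM, a small GTPase that dampens calcium entry, averaged 7.29 ± 2.84 CPM over the controls and 14.1 ± 6.21 over the knock-downs (SD, n = 6), a log2 fold change of 0.95 (edgeR adjusted p = 0.217). TRIB1, a pseudokinase, had a log2 fold change of 0.41 (edgeR adjusted p = 0.345). HBEGF, an EGF receptor ligand, had 1.62 (edgeR adjusted p = 0.377), which turned to −0.09 without knock-down 4. DUSP1, the phosphatase that inactivates stress kinases, tracked FOS with an r of 0.891 over the 12 libraries, RHOB with 0.803, IER2 with 0.773 and ZFP36, an mRNA decay factor, with 0.765, while NR4A1, an orphan receptor gene induced by many of the same stimuli, had −0.06. Those 5 were picked after their values were seen and their r is a description with no test.

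The 12 tested genes of ERK feedback and the delayed early response had a median log2 fold change of 0.16, with 10 positive, 0 called and 0 at an unadjusted p below 0.05. SPRY2 and PHLDA1 had 0.42 and 0.39, and SPRED1 had −0.27 (edgeR adjusted p = 0.609, 0.731 and 0.536). Of the AP-1 target genes 11 of 16 were tested, 8 of them positive with a median of 0.27, with 0 called and 2 at an unadjusted p below 0.05. MMP1, the collagenase gene from which the TPA response element is known, had a log2 fold change of 3.71 (SE 1.30, edgeR adjusted p = 0.266), PLAU, the urokinase gene, 1.34 (edgeR adjusted p = 0.388), and PLAUR, its receptor, 0.35 (edgeR adjusted p = 0.397). Without knock-down 4 the value of MMP1 was −0.02 and that of PLAU 0.11. Of the EGR target genes 8 of 12 were tested, with a median of 0.07, 0 called and 2 at an unadjusted p below 0.05, among them FLT1 at 2.12, or 0.13 without knock-down 4 and CDK5R1 at 0.25 (edgeR adjusted p = 0.328 and 0.474). Heat shock genes, a stress response of other control, had 6 of 11 positive, 0 called by edgeR and 2 at an unadjusted p below 0.05. HSPA8 averaged 2093 ± 71.8 CPM over the controls and 1424 ± 430.4 over the knock-downs (SD, n = 6), a log2 fold change of −0.56 (edgeR adjusted p = 0.167), and DESeq2 called 1 of these genes.

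Knock-down 4, the library with the high FOSL1, held the highest value of many genes of the same circuit and of some other lists. Of all tested genes 16.7% had their highest value in it, and 16.3% in knock-down 5. Of the 10 members 3 did, FOSL1, FOSL2 and JUND, as did 10 of 12 tested genes of ERK feedback, 6 of 11 AP-1 target genes, 6 of 11 dimer partners and 11 of 27 other immediate early genes, but 2 of 18 upstream kinases and SRF partners and 1 of 11 heat shock genes. EGR target genes had 4 of 8 highest there, macrophage and leukocyte markers 3 of 6 and endothelial markers 2 of 4. Among the remaining lists the share was highest for fibroblast and pericyte markers, with 2 of 9, followed by Ewing sarcoma markers with 1 of 9. These counts describe 1 library and carry no test. MMP1 was at 342 CPM there and at most 11.5 CPM in the other 11 libraries. CXCL8, the interleukin 8 gene, was at 53.7 CPM against at most 0.721. HBEGF was at 9.41 against at most 1.21, and DUSP6, the phosphatase that inactivates ERK, at 60.6 against at most 32.2. ETV4, an ETS factor downstream of ERK, was at 6.17 CPM against at most 0.381. FOS, at 70.4 CPM, and JUN, at 144 CPM, were within the range of the other knock-downs in that library.

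**Figure D5:**
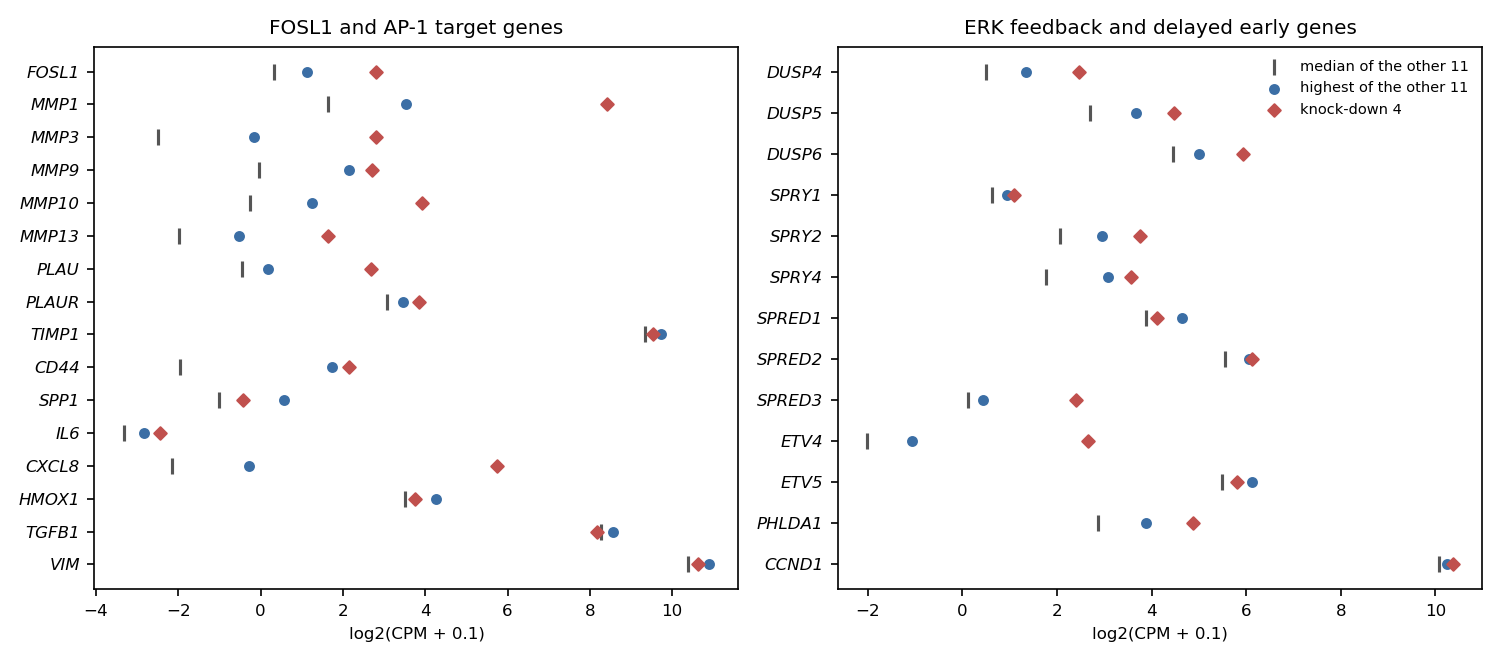
Log2 of CPM plus 0.1 (horizontal axes) for FOSL1 with AP-1 target genes and for the ERK feedback genes, with the library knock-down 4 as a diamond, the highest of the other 11 libraries as a point and their median as a bar. MMP1 and CXCL8 show the widest gaps, at 342 against 11.5 CPM and 53.7 against 0.721 CPM, while TIMP1, TGFB1 and VIM lie within the other libraries.

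The same library had the highest sum of macrophage and leukocyte markers, 35.5 CPM, against 7.75 to 27.4 CPM in control and 8.63 to 18.4 CPM in the other knock-downs, and the highest sum of fibroblast and pericyte markers, 1609 CPM, against 574 to 1587 CPM in control and 423 to 703 CPM in the other knock-downs. Of these lists 6 of 10 and 9 of 10 genes were tested, and none of their genes was at 0 in all libraries. In the fibroblast and pericyte sum of knock-down 4, COL1A1, COL3A1 and COL1A2 held 658, 446 and 331 CPM. LUM and FAP, at 6.34 and 7.37 CPM there, were at their lowest of all libraries. Only 2 of the 9 tested markers of that list were at their highest in knock-down 4. Endothelial markers, of which 4 of 8 were tested, summed to 57.9 to 101 CPM in control and 57.7 to 94.1 CPM in knock-down. Skeletal muscle markers, 3 of 8 tested, summed to 2.87 to 27.3 and 1.52 to 17.5 CPM, and keratinocyte markers, 3 of 6 tested, to 40.3 to 63.6 and 46.0 to 85.2 CPM. Of the 27 host markers tested in all 0 were called by edgeR. Among the fibroblast and pericyte markers 2 of 9 had an unadjusted p below 0.05, as did 2 of 3 keratinocyte markers and 0 of 6 macrophage and leukocyte markers. DCN, the gene of the matrix proteoglycan decorin, averaged 36.2 ± 3.24 CPM over the controls and 59.2 ± 16.1 over the knock-downs (SD, n = 6), a log2 fold change of 0.71 (SE 0.161, edgeR adjusted p = 0.0844). Of the fibroblast and pericyte markers 1 was called by DESeq2 and 1 by edgeR without control 6, knock-down 4 and knock-down 5. Their part in the values of knock-down 4 was not tested.

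By likeness over the 12 libraries, as deviations from the group means, the genes nearest to FOS among 12415 protein-coding genes other than the members were SUZ12, a subunit of Polycomb repressive complex 2, with r of 0.903, CPEB3, an mRNA-binding regulator of translation, with 0.882, C16orf72 with 0.878, OSBPL8, a lipid transfer protein gene, with 0.875, and DUSP1 with 0.872. These r are the highest of a search over many genes and carry no test. Without controls 4 and 6, the libraries farthest from their group mean of FOS, the values were 0.865, 0.854, 0.850, 0.849 and 0.792. SUZ12 moved less than FOS, with 65.7 CPM at its highest, in control 6, and group means of 50.2 and 45.6 CPM. The genes nearest to FOSL1 were TES, a focal adhesion protein gene, with 0.944, SERPINB8 with 0.924, TNFRSF12A, the TWEAK receptor gene, with 0.922, PKIB with 0.910 and ARID5B with 0.902. All 5 were highest in knock-down 4. Without knock-downs 3 and 4, the libraries farthest from their group mean of FOSL1, r fell to 0.855, 0.721, 0.730, 0.806 and 0.614. These r too are the highest of a search and carry no test.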

How the data were processed

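The values are raw counts of reads in each gene as deposited, with no scaling. FastQC, STAR 2.6.0a, featureCounts, limma 3.40.2, R 3.6.0 and the build hg38 are named in the submitters' processing notes. Per the labels' protocols, an RNeasy kit and the TruSeq stranded mRNA kit were used. Exons of all 57169 genes matched GENCODE 29. Genes passing filterByExpr, 16519 with at least 99.72% of the counts, were scaled by TMM factors of 0.921 to 1.04 and tested with edgeR 4.0.16 (R 4.3.3, quasi-likelihood F test, robust, no covariate), with Benjamini-Hochberg adjustment over all of them and a threshold of 0.05. CPM are scaled by those factors, with a prior count of 2 on the log2 scale. Single genes also had an exact two-sided permutation test, whose smallest p is 0.00216, and pairs of members permutation tests of 100000 resamples. DESeq2 1.42.0 and limma-voom (limma 3.58.1) were alternatives, beside other scalings and filters, title number and letter, a host marker covariate, each library left out, and, chosen after seeing the data, leaving out control 6, knock-down 4 and knock-down 5. The fit was tested on simulated data. Total counts of 23859184 to 26678325 limit precision, so 3 counts are 0.112 to 0.126 CPM. No library repeated another of its group (lowest chi-square per degree of freedom 12.05). Where the labels do not say that libraries come from separate animals, p-values measure only the spread between these samples.

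The members and the 15 gene lists, 170 entries with 2 matched by an older symbol (CYR61 and CTGF), were chosen with earlier results of these data known. Genes named are RNF2, the members, up to 3 of each list with the smallest edgeR p, called genes of the lists, and the 5 most like FOS and the 5 most like FOSL1. Some genes that this rule takes are not reported here. Other genes named were chosen after their values were seen. Lists are described by counts and medians without a test. Promoter windows come from RefSeq (GRCh38.p14) and were matched by symbol.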

Additional observations from a re-analysis of the deposited data

Results flagged for a closer look

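In 2 of the 22 groups of 6 libraries examined, for RNF2 and the 10 members, a single library lay far from the others by the gap between it and its neighbour, relative to the whole range. For normally distributed values, chance alone would give such a gap in about 1 of 20 groups. FOS in knock-down 2 was at 143 CPM, where the other knock-downs held 38.1 to 73.0 CPM, and the gap was 0.666 of the range against a critical value of 0.625. FOSL1 in knock-down 4 was at 6.90 CPM, where the other knock-downs held 0.692 to 2.09 CPM, and the gap was 0.775 of the range. Both gaps were taken on CPM. In log2 CPM, FOS was at 7.16 in knock-down 2 and at 5.25 to 6.19 in the other knock-downs. FOSL1 was at 2.80 in knock-down 4 and at −0.37 to 1.12 in the others. On that scale both gaps, as parts of the range, lie below the critical value.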

How the results depend on the processing

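No member was called under any alternative. The count of called genes over the whole table, 49, was 356 with DESeq2, 500 with limma-voom and sample quality weights, 91 with the title number as a random effect (estimated correlation −0.125), 7 with counts summed by title number, 28 with the title letter and 84 with the host marker mean as covariate, and 108 without control 6, knock-down 4 and knock-down 5. With 1 library left out it ran from 16, without control 3 or knock-down 1, to 79, without knock-down 4, with 19, 20 and 28 without controls 1, 2 and 4, 77 without control 6 and 31 without knock-down 3. FOSL1 turned to −0.16 with quality weights and −0.34 without the 3 libraries. FOSL2 turned in 12 of 25 alternatives: library size alone −0.0042, no filter −0.00077, limma-voom −0.029, quality weights −0.10, random effect −0.013, summed counts −0.10, without the 3 libraries −0.23, and without control 1, control 2, control 6, knock-down 4 and knock-down 6 −0.025, −0.0007, −0.032, −0.13 and −0.016 (0.11 at most, without knock-down 2). Other genes turned as well. NAB1 was 0.014 without knock-down 4 and 0.044 without the 3 libraries, and −0.16 at its lowest with 1 library left out. HBEGF ran from −0.094 without knock-down 4 to 1.87 without control 6. PHLDA1 was −0.31 with quality weights and −0.45 without the 3 libraries, and ran from −0.13 without knock-down 4 to 0.58 without control 3. MMP1 was −0.27 without the 3 libraries, and ran from −0.021 without knock-down 4 to 4.14 without control 6. The cause was not tested. FOS kept its sign, from 0.30 to 1.18 (lowest adjusted p 0.058, limma-voom with quality weights), as did JUN, from 0.40 to 0.88, and JUND, from 0.32 to 0.57. No paired analysis was possible because no title number occurs in both groups and replicate numbers follow the order of deposit. With 18 to 162 counts per library, depth limits FOSL1.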

Other observations

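Ratios of raw counts within a library need no scaling between libraries. JUN counts divided by EGR1 counts gave 0.606 to 0.971 in control, with a median of 0.708, and 0.909 to 2.16 in knock-down, with a median of 1.49. Knock-downs 4 and 5, at 0.909 and 0.930, lay within the control range and the other 4 above it. FOS counts divided by EGR1 counts gave 0.179 to 0.625 in control and 0.351 to 1.21 in knock-down. FOS counts divided by FOSB counts were at 7.38 in knock-down 4 and at 1.71 to 4.98 in the other 11 libraries. These pairs were chosen after the values were seen, so the ratios are given with no test.

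Among the Ewing sarcoma markers CCK, the cholecystokinin gene, was called. It averaged 10.8 ± 2.73 CPM over the controls and 51.9 ± 34.3 over the knock-downs (SD, n = 6), a log2 fold change of 2.26 (edgeR adjusted p = 0.0113), with its highest value, 116 CPM, in knock-down 3, where FOS was at 65.3 CPM. The call was lost without control 3 (edgeR adjusted p = 0.0523) and with no filter on low counts (0.0767), and held in the other 23 alternatives.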
